A study of Saccharomyces cerevisiae with 24 samples.

Results

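The genes followed here are 10 genes of Saccharomyces cerevisiae that make, desaturate, lengthen and activate fatty acids: ACC1, FAS1, FAS2, OLE1, ELO1, ELO2, ELO3, FAA1, FAA4 and ACB1. They were chosen by name for their place in the pathway, not by their measured values, although results of these arrays were already known when the list was made. All 10 were found among the 4069 genes measured, each by 2 probes, which makes 20 of the 8152 probes that carry a gene name. ELO2 is listed on the array under its older name FEN1.

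The study hybridised RNA of 8 yeast mutants, adapted to tolerate hydrolysates of lignocellulosic biomass, against reference strains on 2-colour arrays. The reference was the strain DsRed for the mutants M1, PR-438, PR-338 and PR-164, the strain YFP for PY-231, and the strain GFP for PG-132, PG-259 and PG-353. DsRed, GFP and YFP are fluorescent proteins, and the labels give no further genotype for mutants or references, nor whether a mutant is 1 clone. Each mutant was hybridised on 3 slides, described as biological replicates, which makes 24 arrays. Replicate 1 of every mutant lay on slide 1, replicate 2 on slide 2 and replicate 3 on slide 3. Slides 1 and 3 had the mutant in Cy5 and slide 2 had it in Cy3, so slide 2 and the opposite dye orientation cannot be told apart. The labels name minimal YNB medium without glucose and hydrolysate at 1 g/mL for all cultures, and leave it unsaid whether both belonged to the same medium.

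Yeast builds fatty acids in the cytosol from acetyl-CoA. Acetyl-CoA carboxylase makes malonyl-CoA, the fatty acid synthase complex joins malonyl units into saturated chains, a desaturase introduces the double bond of the unsaturated chains, and elongases of the endoplasmic reticulum extend chains to the very long ones found in sphingolipids. Acyl-CoA synthetases activate free fatty acids, imported ones among them, and the acyl-CoA binding protein carries the activated chains between these steps. The genes of the carboxylase and the synthase are known for shared control by inositol through the transcription factors Ino2 and Ino4 and the repressor Opi1.

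Values are log2 ratios of mutant over reference after the median of an array's named probes was subtracted, so 0 means the array's typical gene. RNA came from whole cultures, so less transcript per cell and fewer cells with the transcript cannot be told apart. That slide 2 runs in this direction is likely rather than stated. Its basis is the alpha-cell receptor gene STE3 of M1, at -6.13 on slide 2 and -5.71 on slide 3, and the a-factor gene MFA2 of M1, at 6.76 and 6.26. M1 replicate 1 showed neither difference, with STE3 at 0.56 and MFA2 at 0.07, so that array went against the other 2 arrays labelled M1. On PY-231 replicate 1 the 2 probes of a gene correlated at only r = -0.0098 over genes, against 0.29 to 0.93 on the other 23 arrays. For the main results, values with the sign of slide 2 turned are given as well, and calls that are lost without one of these arrays are named.

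In the mean of the 8 mutants, 6 of the 10 fatty acid genes were lower than in the references and none was higher. They were ACC1, FAS1 and FAS2, which carry the cytosolic synthesis itself, the desaturase gene OLE1, the elongase gene ELO2 and the acyl-CoA binding protein gene ACB1. The largest difference was FAS2 at 2.31-fold lower, and the smallest of the 6 was OLE1 at 1.30-fold lower. Of all 4069 genes, 11.2% were called lower and 2.09% higher in the same test, limma with Benjamini-Hochberg adjusted p under 0.05. The median of the 10 was -0.44, against 0.0041 over all genes. ACC1, FAS1, FAS2, OLE1 and ACB1 had their lowest medians on slide 2, while ELO2 had its lowest on slide 1. With slides 1 and 3 alone, 3 members were called lower, ACC1, ELO2 and FAA4, beside 13.0% of all genes, and 2 were called higher, OLE1 and ACB1, beside 16.2%. Both of these slides had the mutant in Cy5, so that fit has no dye term and its values hold any dye effect of a gene. With the sign of slide 2 turned, 5 of the 10 were called higher, beside 19.2% of all genes. The mean of the 8 mutants then became 0.81 for FAS1, 0.67 for OLE1 and 0.10 for FAA4, while the other called members have their values beside their own results.

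**Figure D1:**
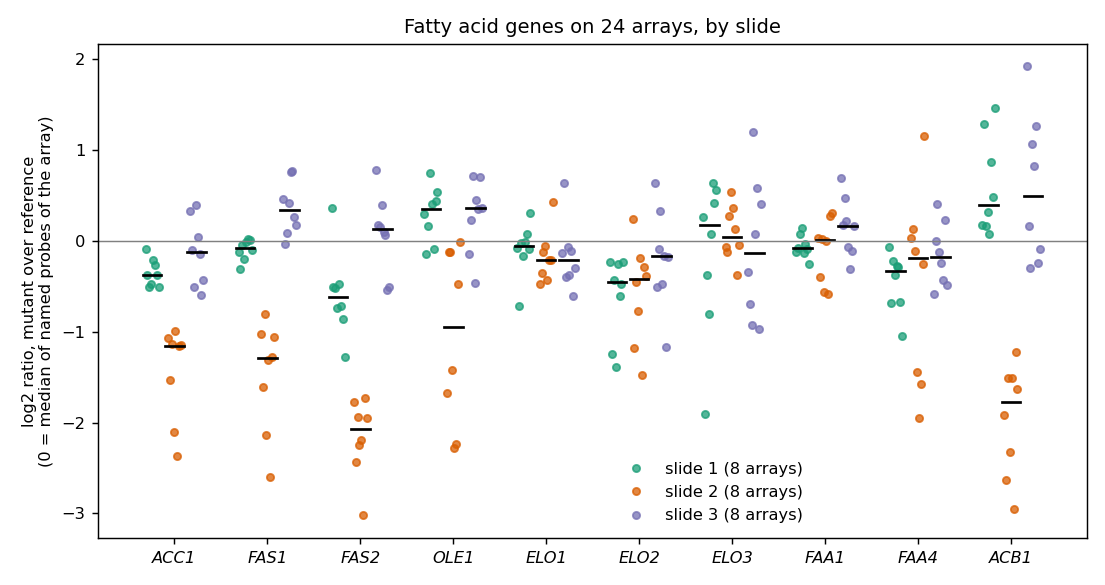
Log2 ratio of mutant over reference (y axis, 0 is the median of the named probes of the array) for each fatty acid gene (x axis) on the 24 arrays, coloured by slide, with a bar at the median of the 8 arrays of a slide. FAS2 and ACB1 are below 0 on all 8 arrays of slide 2 and have medians of 0.13 and 0.49 on slide 3, while ELO2 has a median below 0 on each slide.

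ACC1 encodes acetyl-CoA carboxylase, the enzyme that commits acetyl-CoA to fatty acid synthesis. Its log2 ratios on replicates 1, 2 and 3 were -0.51, -1.15 and -0.43 in M1, -0.38, -1.53 and -0.10 in PR-438, -0.51, -1.13 and -0.51 in PR-338 and -0.38, -1.16 and -0.60 in PR-164. They were -0.47, -2.11 and 0.39 in PG-259, -0.21, -0.995 and 0.04 in PG-353, -0.27, -2.37 and -0.15 in PG-132 and -0.09, -1.07 and 0.32 in PY-231. ACC1 was thus below 0 on 21 of 24 arrays, on every array of the 4 mutants compared with DsRed, and the 3 exceptions all lay on slide 3. On that slide 1 of the 2 probes of ACC1 had no positive ratio in PR-338, so that value rests on the other probe.

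The fitted mean of the 8 mutants for ACC1 was -0.84 ± 0.08 (SE, 24 arrays), or 1.79-fold lower, with a limma adjusted p of 2.51e-06. That SE takes the 24 arrays as independent and leaves out what the arrays of slide 2 share. The same holds for the means of the other members below. Without the dye term the mean of ACC1 was -0.64 ± 0.15 (SE), with a limma adjusted p of 0.028. ACC1 remained lower after a loess on brightness, at -0.57, and with slides 1 and 3 alone, at -0.24 with a limma adjusted p of 0.034. Turning the sign of slide 2 gave 0.60. In single mutants it was called in PG-132, at -1.13 ± 0.22 (SE, n = 3) with a limma adjusted p of 0.039, where 0.221% of all genes were called lower. That call was lost after the loess, with a fitted value of -0.78 and a limma adjusted p of 0.17. It was also lost without PY-231 replicate 1, at a limma adjusted p of 0.051, without slide 1, at 0.32, and without slide 2, where the value was -0.21. The other 7 mutants ranged from -0.93 in PG-259 to -0.48 in PY-231 and did not pass. When only the arrays with the DsRed reference were fitted, ACC1 also passed in M1 and PR-164, with limma adjusted p of 0.049 and 0.033, beside 0.418% and 0.86% of all genes called lower. In the fit of the arrays with the GFP reference alone, the call of ACC1 in PG-132 was lost, with a limma adjusted p of 0.058.

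FAS2 encodes the alpha subunit of the fatty acid synthase, which carries the acyl carrier domain and the condensing activity. Its log2 ratios on replicates 1, 2 and 3 were -1.28, -1.95 and -0.51 in M1, -0.51, -2.44 and 0.17 in PR-438, -0.52, -1.94 and 0.16 in PR-338 and -0.86, -1.73 and -0.54 in PR-164. They were -0.74, -2.24 and 0.39 in PG-259, -0.47, -2.19 and 0.09 in PG-353, -0.72, -3.02 and 0.06 in PG-132 and 0.36, -1.78 and 0.78 in PY-231. Every array of slide 2 lay below every array of slides 1 and 3. M1 and PR-164 were the mutants below 0 on all of their arrays, and PY-231 was the mutant above 0 on both other slides.

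FAS2 was the member called in most single mutants. It stood at -1.57 ± 0.27 (SE, n = 3) in M1 with a limma adjusted p of 0.015, where 0.147% of all genes were called lower. It stood at -1.54 ± 0.27 in PG-132 with a limma adjusted p of 0.029, and at -1.36 ± 0.27 in PR-164 with a limma adjusted p of 0.037, where 0.467% of all genes were called lower. In the fit with the replicate number as a block it also passed in PR-438 at -1.24 (limma adjusted p 0.052 without the block and 0.014 with it). The same held in PR-338 at -1.08 (limma adjusted p 0.11 and 0.041) and in PG-259 at -1.18 (limma adjusted p 0.19 and 0.037). PG-353 at -1.17 and PY-231 at -0.53 passed in neither fit, and no member was called in PY-231, where 0 of 4069 genes were. Beside the dye term, the block takes the differences between slides that all mutants share out of the error. Replicates are slides, so that SE leaves out this part of the spread between replicates. For FAS2 in PR-438 it was 0.21 with the block, 0.27 in the main fit and 0.65 without a dye term. Without a dye term FAS2 in PR-438 was -0.93, with a limma adjusted p of 0.77. All genes called lower made up 0.295% in PR-438, 0.0983% in PR-338, 0.0492% in PG-259 and 0.0246% in PG-353 without the block. With it they made up 0.442% in PR-438, 0.172% in PR-338 and 0.0737% in PG-259.

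Of the 3 calls of FAS2, the one in M1 held after a loess on brightness, at -1.34 with a limma adjusted p of 0.028, and those in PG-132 and PR-164 did not. Without M1 replicate 1, the array that lacked the mating difference, FAS2 in M1 was -1.23 with a limma adjusted p of 0.11. None of the 3 passed without slide 2, where FAS2 was -0.90 in M1, -0.33 in PG-132 and -0.70 in PR-164, nor without slide 1, with limma adjusted p of 0.18, 0.28 and 0.21. Without slide 3 the call in PR-164 was lost, at a limma adjusted p of 0.099, and the other two held. In the mean of the 8 mutants FAS2 was -1.21 ± 0.10 (SE, 24 arrays) with a limma adjusted p of 4.56e-07, and -1.05 after the loess. Its slide medians were -0.62, -2.07 and 0.13, and that SE leaves out part of this spread between slides. With slides 1 and 3 alone the mean was -0.26 and did not pass, at a limma adjusted p of 0.12. Turning slide 2 gave 0.95.

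FAS1 encodes the beta subunit of the synthase, which works in one complex with Fas2. The 8 arrays of slide 2 ran from -2.60 in PG-132 through a median of -1.29 to -0.80 in PR-338. Slide 1 ran from -0.31 in PR-438 through -0.08 to 0.03 in PG-132, and slide 3 from -0.04 in PR-438 through 0.34 to 0.77 in PG-132. Both subunit genes were therefore lowest on slide 2 and had a median above 0 on slide 3, and PG-132 was the lowest array of slide 2 for both. They differed on slide 1, where FAS2 had a median of -0.62.

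The mean of FAS1 over the 8 mutants was -0.67 ± 0.10 (SE, 24 arrays), or 1.59-fold lower, with a limma adjusted p of 8.88e-05. It was -0.26 after the loess, with a limma adjusted p of 0.0496. With slides 1 and 3 alone, a fit without a dye term, it was 0.13, a turn of direction. In single mutants FAS1 ranged from -0.92 in PR-438 to -0.46 in PG-353 and was called in none.

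**Figure D2:**
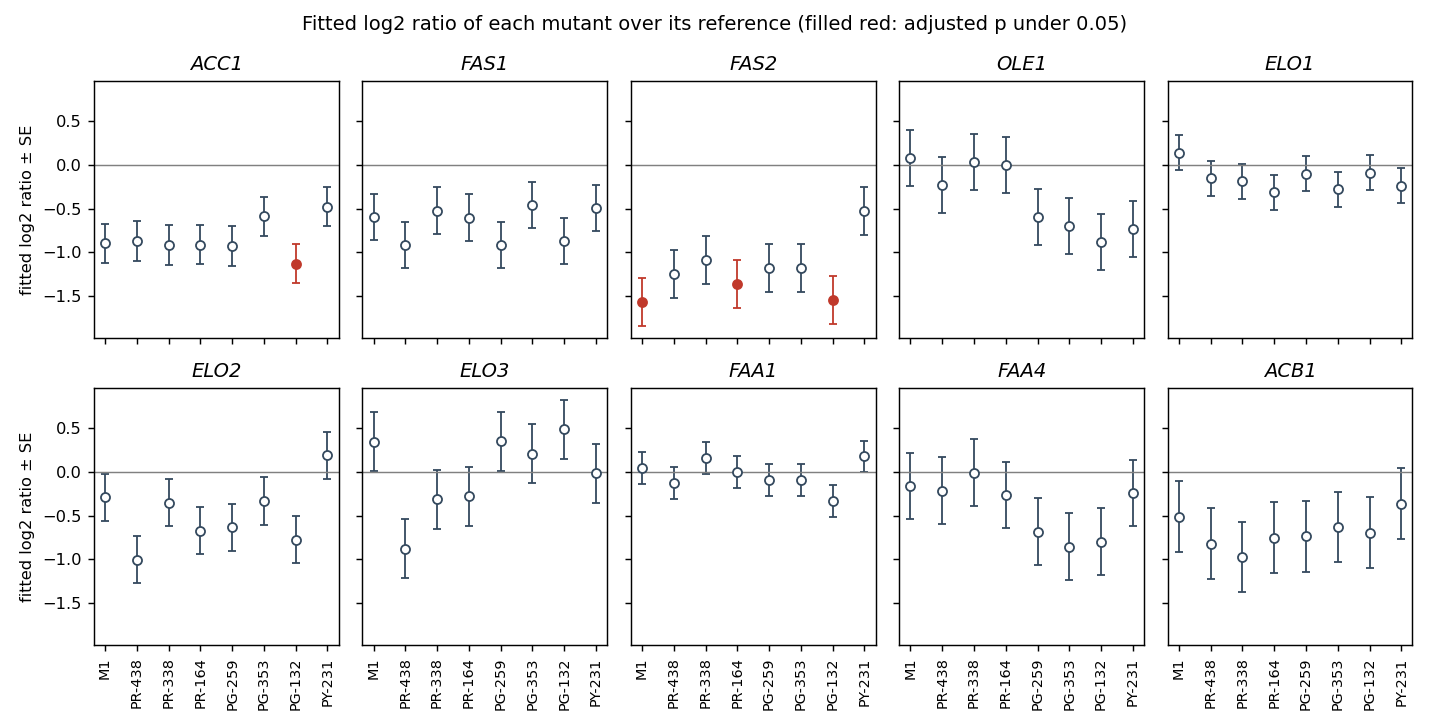
Fitted log2 ratio of each mutant over its reference (y axis, error bars are the SE of the limma fit, n = 3 arrays each) for the 10 fatty acid genes, 1 panel per gene, with the 8 mutants on the x axis. Filled red points passed an adjusted p of 0.05 over all 4069 genes: FAS2 in M1, PR-164 and PG-132, and ACC1 in PG-132.

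OLE1 encodes the delta-9 desaturase, the enzyme that makes the monounsaturated fatty acids of yeast. On slide 2 its log2 ratio was -1.43 in PG-259, -2.28 in PG-353, -2.23 in PG-132 and -1.68 in PY-231, but -0.01 in M1, -0.13 in PR-438, -0.13 in PR-338 and -0.47 in PR-164. On that slide the mutants compared with GFP and YFP were all below those compared with DsRed. Of all genes, 11.5% had every GFP mutant below every DsRed mutant on slide 2, and OLE1 and FAA4 were the members that did. On slide 1 the values ran from -0.15 in PR-438 through a median of 0.35 to 0.75 in PG-259, and on slide 3 from -0.46 in PG-259 through 0.36 to 0.72 in PR-338. The groups overlapped on both of these slides, and 6 of the 8 arrays were above 0 on each.

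FAA4, an acyl-CoA synthetase gene that acts with FAA1 in importing and activating long-chain fatty acids, showed a like split on slide 2. There it was -1.58 in PG-132, -1.45 in PG-259 and -1.95 in PG-353, against 1.16 in M1, 0.13 in PR-438, -0.11 in PR-338, -0.26 in PR-164 and 0.03 in PY-231. All 8 arrays of slide 1 were below 0, from -1.05 in M1 to -0.07 in PY-231. Slide 3 ran from -0.58 in PY-231 to 0.40 in PR-338. After the mean of each slide was subtracted, OLE1 and FAA4 correlated at r = 0.71 over the 24 arrays, which share slides and references.

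The split was compared in the same fit, a comparison chosen after these values were seen. The 3 mutants compared with GFP averaged -0.73 for OLE1 and the 4 compared with DsRed -0.03, a difference of -0.69 ± 0.24 (SE) with a limma adjusted p of 0.76 over all genes. For FAA4 the averages were -0.78 and -0.16, a difference of -0.62 ± 0.29 (SE) with a limma adjusted p of 0.80. The third member with a sizeable difference was ELO3, with averages of 0.35 and -0.28, a difference of 0.63 ± 0.25 (SE) and a limma adjusted p of 0.78. None passed, nor did any of the 4069 genes in limma, of which 247 had an unadjusted p under 0.05, these 3 members among them. In this comparison mutant and reference strain cannot be told apart. The differences of the other 7 members lay between -0.19 for FAA1 and 0.08 for ACB1. With the sign of slide 2 turned, the differences became 0.50 for OLE1, 0.64 for FAA4, 0.35 for ELO3, 0.40 for ACC1 and 0.47 for FAS1. The split of OLE1 and FAA4 thus changed direction, and none of the members passed there either, with limma adjusted p from 0.59 upwards.

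OLE1 was called lower in the mean of the 8 mutants, at -0.38 ± 0.12 (SE, 24 arrays) with a limma adjusted p of 0.041. That call was lost after the loess, at -0.22 with a limma adjusted p of 0.25. It was lost as well without M1 replicate 1, without slide 1 and without slide 3, with limma adjusted p of 0.055, 0.10 and 0.13. With slides 1 and 3 alone, a fit without a dye term, OLE1 was called in the other direction, at 0.29 with a limma adjusted p of 0.044. FAA4 had a mean of -0.40 ± 0.14 (SE, 24 arrays), which did not pass at a limma adjusted p of 0.066, and was at -0.40 after the loess too. With slides 1 and 3 alone it was -0.30 and passed, at a limma adjusted p of 0.034. When only the arrays with the GFP reference were fitted, FAA4 was called in PG-132 at -0.99 and in PG-353 at -1.05, with limma adjusted p of 0.031 and 0.043. The shares of all genes called lower in that fit were 0.442% and 0.221%.

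The elongase genes did not move together. ELO2, which serves the lengthening of saturated chains on the way to the very long ones, was below 0 on 21 of 24 arrays and on all 3 arrays of 6 mutants. For ELO2, turning the sign of slide 2 necessarily took those 6 mutants out, as it changes 1 of 3 signs, and brought in no other. Its log2 ratios on replicates 1, 2 and 3 were -0.23, -0.39 and -0.18 in M1, -1.24, -1.18 and -0.51 in PR-438, -0.43, -0.45 and -0.09 in PR-338 and -0.47, -0.29 and -1.17 in PR-164. They were -1.39, -0.77 and 0.33 in PG-259, -0.26, -0.19 and -0.48 in PG-353, -0.61, -1.48 and -0.16 in PG-132 and -0.23, 0.24 and 0.63 in PY-231. PR-438 was low on all of its arrays, and PY-231 was above 0 on slides 2 and 3.

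The slide medians of ELO2 were -0.45, -0.42 and -0.17. Its mean of the 8 mutants was -0.48 ± 0.10 (SE, 24 arrays), or 1.40-fold lower, with a limma adjusted p of 0.0025, and -0.41 with slides 1 and 3 alone, with a limma adjusted p of 0.036. Without slide 1 it was -0.38 and just missed the threshold, with a limma adjusted p of 0.058. After the loess it was -0.03 and did not pass. That adjustment moved its slide medians apart, to -0.82, 0.65 and -0.60. With slide 2 turned ELO2 was at 0.08. The lowest single mutant, PR-438 at -1.003 ± 0.27 (SE, n = 3), did not pass at a limma adjusted p of 0.10.

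ELO1, which lengthens medium chains, was below 0 on 20 of 24 arrays, but by small amounts, with slide medians of -0.05, -0.21 and -0.22. Its mean of -0.15 ± 0.07 (SE, 24 arrays) did not pass, at a limma adjusted p of 0.17. ELO3, which makes the longest chains, had a mean of -0.01 ± 0.13 and was below 0 on 11 of 24 arrays. Its arrays ranged widely, from -1.91 in PR-438 replicate 1 to 1.20 in PG-259 replicate 3. Its fitted values ranged from -0.88 ± 0.34 (SE, n = 3) in PR-438 to 0.48 ± 0.34 in PG-132, and neither passed.

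FAA1, the main long-chain acyl-CoA synthetase gene, stayed near 0 on most arrays, between -0.59 in PG-132 and 0.70 in PY-231. Its mean was -0.03 ± 0.07 (SE, 24 arrays) with a limma adjusted p of 0.76. After the loess it was called higher, at 0.47 with a limma adjusted p of 0.020, a turn of direction. The loess moved its slide medians from -0.08, 0.01 and 0.17 to -0.38, 1.17 and -0.43. ELO1 and ELO3 also came to lie above 0 after the loess, at 0.02 and 0.11, without a call.

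ACB1 encodes the acyl-CoA binding protein. Its log2 ratios on replicates 1, 2 and 3 were 1.46, -1.64 and -0.09 in M1, 1.28, -2.63 and 0.16 in PR-438, 0.17, -1.51 and -0.30 in PR-338 and 0.48, -1.22 and -0.24 in PR-164. They were 0.31, -2.32 and 1.07 in PG-259, 0.07, -1.51 and 0.82 in PG-353, 0.87, -2.95 and 1.26 in PG-132 and 0.18, -1.92 and 1.92 in PY-231. ACB1 was above 0 on all 8 arrays of slide 1, below 0 on all 8 of slide 2, and of one sign on all 3 arrays in no mutant. Its mean was -0.69 ± 0.15 (SE, 24 arrays) with a limma adjusted p of 0.0037. The mean was 0.59 with slides 1 and 3 alone, called in the other direction at a limma adjusted p of 0.021, and 1.27 with slide 2 turned. The fit of slides 1 and 3 has no dye term, so a dye effect and a mutant effect cannot be told apart in it.

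Before centring, the deposited ratio of ACB1 had a median of 0.90 on slide 1, 0.86 on slide 2 and 0.82 on slide 3, so it differed little between slides. Most other members differed more, as ELO1 did with medians of 0.57, 2.74 and 0.37. The median ratio of a whole array lay between 0.22 and 1.41 on slides 1 and 3 and between 2.44 and 5.41 on slide 2. The centred value of ACB1 ran opposite to the array's median on 20 of 24 arrays. For FAS1 this was so on 18 arrays, for OLE1 on 17, for ACC1 and ELO3 on 14, for FAS2 and ELO2 on 12, for ELO1 on 11, for FAA1 on 9 and for FAA4 on 7. The same count over all genes was not made. Because that median was subtracted, a ratio that differs little between arrays runs opposite to it by construction. FAS2 had a deposited ratio of 0.58 to 1.48 on slide 2, with a median of 0.69, below the median of every array there.

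The difference between slides moved with brightness. Over all genes, those between the percentiles 95 and 100 of brightness had a median log2 ratio of 0.99 on slide 1, -1.98 on slide 2 and 0.97 on slide 3, while those between 80 and 90 stood at -0.07, -0.25 and -0.04. Of the members, ACB1 was at the percentile 94.9, FAA1 at 94.0, ELO2 at 91.9 and FAS1 at 90.3. ACC1 at 84.0, OLE1 at 80.7, FAS2 at 80.5, ELO1 at 79.9, ELO3 at 78.8 and FAA4 at 57.9 were less bright. FAS2 with a slide 2 median of -2.07, ACC1 with -1.15 and OLE1 with -0.95 lay below the median of genes between 80 and 90 on that slide. FAA1 and ELO2, at 0.01 and -0.42, lay above theirs, where genes between 90 and 95 had a median of -1.06, and FAS1 and ACB1, at -1.29 and -1.78, lay below it. The part of brightness in the differences of single members was not tested beyond the loess.

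**Figure D3:**
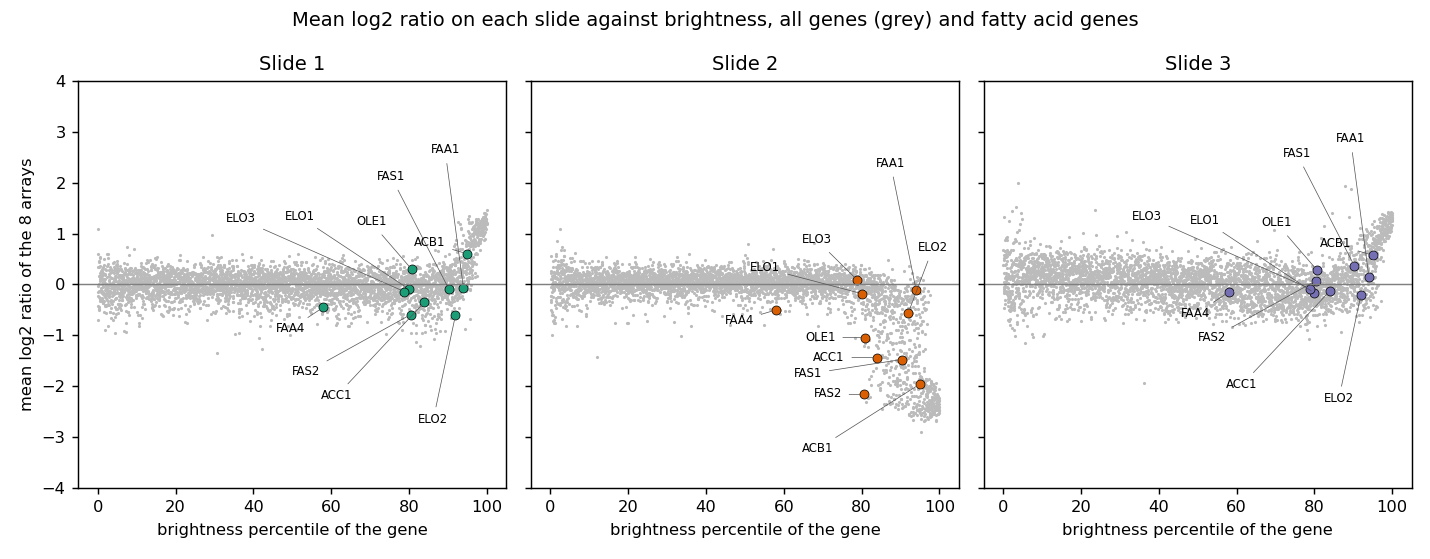
Mean log2 ratio over the 8 arrays of a slide (y axis) against the brightness percentile of the gene (x axis), 1 panel per slide, with all genes in grey and the fatty acid genes labelled. The brightest genes lie above 0 on slides 1 and 3 and below 0 on slide 2, and FAS2, at the percentile 80.5, lies among the lowest genes of its brightness on slide 2.

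After a loess on brightness within each array, 3 of the 10 members were called lower in the mean of the 8 mutants, ACC1, FAS1 and FAS2, and 1 was called higher, FAA1. The shares of all genes were then 4.94% lower and 3.61% higher. The members lower after this adjustment are the carboxylase gene and both subunit genes of the synthase, with FAS1 just inside the threshold. The slides still differed after it. Medians on slides 1, 2 and 3 were then -0.54, -1.87 and 0.19 for FAS2 and -0.22, -0.44 and 0.21 for FAS1. For ACC1 they were -0.43, -0.76 and -0.24. The median of the 10 was -0.18. Brightness was estimated from the deposited ratios alone and has only a lower bound for many bright spots, 79.2% of those of FAS1.

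**Figure D4:**
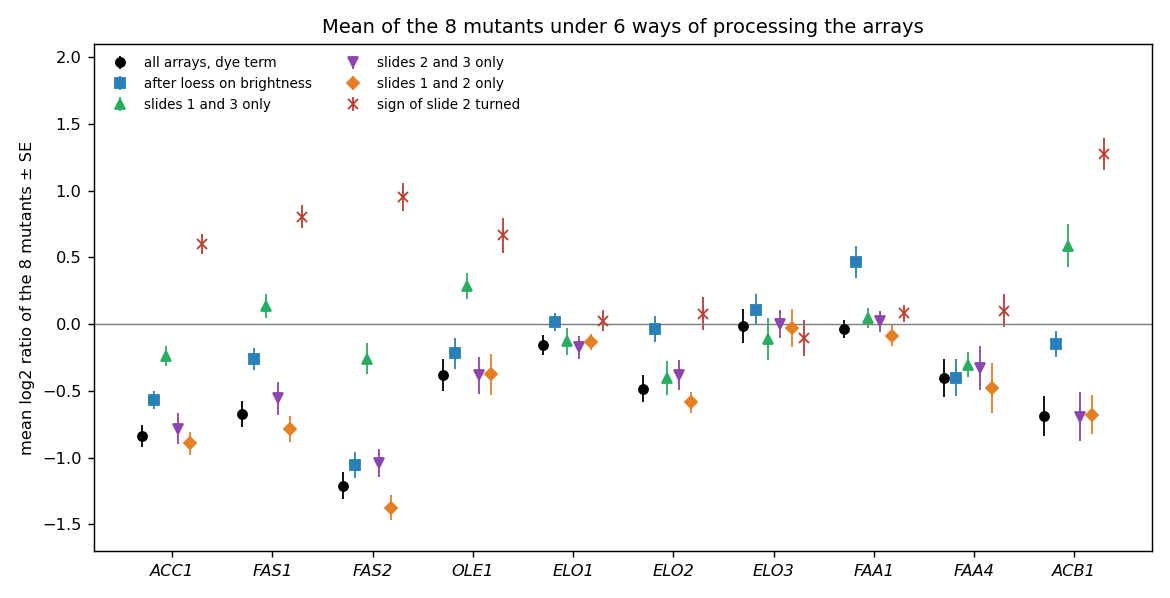
Mean log2 ratio of the 8 mutants (y axis, error bars are the SE of the limma fit) for the 10 fatty acid genes (x axis) under 6 ways of processing the arrays, shown by symbol. ACC1, FAS2, ELO2 and FAA4 lie below 0 in every setting except with the sign of slide 2 turned, ELO2 only just after the loess, at -0.03. FAS1, OLE1, ACB1 and, at 0.05, FAA1 lie above 0 with slides 1 and 3 alone.

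No fatty acid gene passed a test of difference among the mutants. A moderated F test compared the 4 mutants that share the DsRed reference, and another the 3 that share GFP. None of the 10 members had an unadjusted p under 0.05 in either, and the lowest was 0.12 for ELO3 in limma's F test among the DsRed mutants, with an adjusted p of 0.92. Over all genes none passed either test, at 0% of 4069, with 226 and 41 genes at an unadjusted p under 0.05. The member medians by mutant were -0.23 in M1, -0.85 in PR-438, -0.33 in PR-338, -0.46 in PR-164, -0.66 in PG-259, -0.52 in PG-353, -0.79 in PG-132 and -0.30 in PY-231. After the loess they lay between -0.38 in PG-259 and 0.24 in M1. With slides 1 and 3 alone they lay between -0.25 in PR-164 and 0.14 in PY-231. With slide 2 turned all 8 were above 0, from 0.19 in PR-438 to 0.68 in PG-132.

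Members below 0 on all 3 arrays of a mutant numbered 4 in PR-438, PR-164 and PG-132, 3 in M1, PR-338 and PG-353, 2 in PG-259 and 1 in PY-231. The share of all genes so placed was 17.3% in PR-438, 8.48% in PR-164, 13.2% in PG-132, 10.5% in M1, 10.5% in PR-338, 13.3% in PG-353, 10.7% in PG-259 and 10.6% in PY-231. ELO2 was among them in 6 mutants, ACC1 and ELO1 in 5 each, FAA4 in 3, FAS2 in 2, and FAS1, ELO3 and FAA1 in 1 each. Counted over mutants, 24 of 80 pairs of a member and a mutant were below 0 on all 3 arrays, or 30.0%, against 11.8% over all genes. With the sign of slide 2 turned, 5 of 80 pairs were, or 6.25%, against 16.2% over all genes. Those are other pairs, since turning 1 of 3 signs necessarily takes out each of the 24. ELO2, ACC1 and ELO1 were among the 5 in no mutant.

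The genes whose pattern was most like the mean of FAS1 and FAS2 were YDJ1, which encodes an Hsp40 chaperone, at r = 0.92, ARO8, an aromatic aminotransferase gene, at r = 0.92, and ACC1 at r = 0.88. The correlation was taken over 24 arrays after the mean of each slide was subtracted, among 4036 genes, and the points share slides and references. YDJ1, ARO8 and ACC1 lay at the percentiles 85.9, 84.8 and 84.0 of brightness, close to one another. Taken singly, ACC1 correlated with FAS1 at r = 0.78 and with FAS2 at r = 0.73. FAS1 and FAS2 correlated with each other at only r = 0.46, so their mean is not a profile that both share closely. Against the mean of both subunits ELO2 reached r = 0.67, FAA1 0.58, ACB1 0.55, FAA4 0.45 and OLE1 0.23, while ELO3 at 0.07 and ELO1 at 0.05 did not follow it. Among 4034 genes ELO2 ranked 105, FAA1 252, ACB1 286, FAA4 481 and OLE1 1239. ELO3 ranked 1880 and ELO1 1969. Many genes outside the list thus lay closer to that mean than these members did.

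Of 75 measured genes of neighbouring lipid pathways, 6 were called in the mean of the 8 mutants, all of them lower, which is 8.00% beside 13.3% of all genes called in either direction. After the loess 4 were called higher and 2 lower, where 3.61% of all genes were called higher and 4.94% lower. With slide 2 turned 19 were called, 11 higher and 8 lower, or 25.3% beside 31.6% of all genes. Of 16 genes that supply or regulate synthesis, 1 was lower in the mean of the 8 mutants and none higher, with a median of 0.0047, beside the 11.2% of all genes called lower. That gene was ACS2, which makes cytosolic acetyl-CoA, at -0.26 ± 0.07 (SE, 24 arrays) with a limma adjusted p of 0.021, and 0.08 after the loess. The highest was INO4, the activator gene, at 0.33 ± 0.12 with a limma adjusted p of 0.074. None of the 6 measured genes, of 8, of the elongation cycle and other acyl-CoA enzymes was called, from TES1, a peroxisomal thioesterase gene, at -0.10 to TSC13, the enoyl reductase gene of elongation, at 0.17. After the loess TSC13 was called higher, at 0.28 with a limma adjusted p of 0.030. Mitochondrial fatty acid synthesis had no called gene among 7 measured of 8, from CEM1 at -0.08 to LIP5 at 0.07, but 3 with slide 2 turned. Beta-oxidation had none among 14, from POX1, the acyl-CoA oxidase gene, at -0.11 to PXA2, a transporter gene of the peroxisome, at 0.28, and again 3 with slide 2 turned.

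Among 13 genes of phospholipid synthesis, ITR1, which encodes an inositol transporter, was lower at -0.54 ± 0.10 (SE, 24 arrays) with a limma adjusted p of 0.00064, and was -0.11 after the loess. The highest there was INO1, the inositol phosphate synthase gene, at 0.24 and not called. After the loess 2 genes of that list were called higher and 0 lower. Of 8 measured genes of storage lipids, of 11, 3 were lower. They were ARE1, a sterol acyltransferase gene, at -0.56, PAH1, the phosphatidate phosphatase gene, at -0.29, and SLC1, an acyltransferase gene of phosphatidate synthesis, at -0.19, with limma adjusted p of 0.014, 0.023 and 0.013. ARE1 and PAH1 stayed lower after the loess, at -0.54 and -0.32, and SLC1 at -0.07 did not pass, while the highest of that list was DGA1 at 0.12. Of 11 measured sphingolipid genes, of 12, LCB1, a serine palmitoyltransferase gene, was lower at -0.39 with a limma adjusted p of 0.021, a call lost after the loess, at -0.36 with a limma adjusted p of 0.053. Its partner subunit gene LCB2 was the highest at 0.17. After the loess 1 sphingolipid gene was called higher. None of these neighbouring genes was called in a single mutant. With slide 2 turned none of the 6 called in the main fit was called, while INO4 at 0.42 and TSC13 at 0.41 were called higher.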

How the data were processed

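The deposited values cover 15744 probes on 24 arrays in a unit other than the log ratio foreseen: linear channel ratios after background subtraction, as read from the values. Per the labels, the authors made GenePix result files from 5 µg of labelled cDNA; their normalization, filters and genome build are not given in the sources used here. Arrays had 15647 to 15737 spots with a value, 2.14% to 8.28% of them at or below 0, which were dropped. The log2 of each ratio was centred on the median of named probes and averaged per gene; 7592 probes without a gene name were not used. Of 4073 symbols, 133 were updated through a synonym. For FEN1, shared by ELO2 and RAD27, ELO2 was taken because RAD27 has probes of its own.

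One limma fit over all arrays, with 1 term for each mutant and 1 for the dye, tested each log2 ratio against 0, with a median residual SD of 0.379 and 15 degrees of freedom. Its SE holds neither the variation of the reference strains nor whatever the arrays of slide 2 share, and slide 2 weighs as much as slides 1 and 3 together. F tests compared mutants with one reference. Brightness was rebuilt from the whole numbers behind each ratio (denominator up to 10000) for a loess of span 0.3. A replicate number is a slide, so numbers pair arrays: deviations on one slide correlated at a median of 0.50 over 84 pairs (73 above 0.1), against -0.30 over 168 pairs across slides. The number of arrays limits the precision. Members, related lists and the genes named (all members; called, highest and lowest genes of each list; the 3 genes most like FAS1 and FAS2) were chosen with earlier results of these data known. Alternatives were the turned sign of slide 2, no dye term, the replicate block, the loess, the median of probes, centring on all probes, genes on all arrays, one reference at a time and each replicate left out. Without replicate 2 every array has the mutant in Cy5, so that fit has no dye term. Leaving out M1 replicate 1, or the 3 arrays of weakest probe agreement, the comparison of GFP with DsRed mutants, and the count of signs with slide 2 turned were added after the data were seen. The fit was tested on simulated data. Software was limma 3.58.1 and data.table (version 1.17.8) in R 4.3.3, and pandas 2.3.3, numpy 2.4.6 and matplotlib 3.10.9 in Python 3.11.15.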

Additional observations from a re-analysis of the deposited data

Results flagged for a closer look

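ELO3 lay above 0 on all arrays of PG-353 and PG-132 and below 0 on all arrays of PR-438. Its fitted log2 ratio was 0.20 in PG-353, 0.48 in PG-132 and -0.88 in PR-438. FAA1 lay above 0 on all arrays of PR-338, with a fitted log2 ratio of 0.16, and below 0 on all arrays of PG-132, with -0.34. Each of these pairs crosses reference strains, and the differences between the mutants of a pair were not tested. Turning the sign of slide 2 changes 1 of 3 signs, so none of these mutants could keep one sign, and it gives no check of these patterns.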

How the results depend on the processing

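With the sign of slide 2 turned, results changed most: the mean of the 8 mutants became 0.60 for ACC1, 0.81 for FAS1, 0.95 for FAS2, 0.67 for OLE1, 0.079 for ELO2 and 1.27 for ACB1. FAS2 became 0.46 in M1, 0.51 in PR-164, 1.04 in PG-259, 1.19 in PG-132 and 1.37 in PY-231. ACB1 became 1.23 in M1, 1.59 in PR-438, 1.46 in PG-259, 1.92 in PG-132 and 1.57 in PY-231. ACC1 became 0.96 in PG-259 and 0.93 in PG-132, and FAS1 1.01 and 1.36. Called members then numbered 1 in PR-438, 0 in PR-164, 4 in PG-259, 4 in PG-132 and 2 in PY-231, all of them higher. Of all 4069 genes, 57, 204, 153, 388 and 69 were called higher in these mutants, and 1, 85, 1, 58 and 0 lower. In the main fit 0, 1, 0, 0 and 0 were called higher, so higher calls rose over all genes in these mutants. They rose in M1 too, from 4 to 301, where ACB1 was called higher and the call of FAS2 was lost. They did not rise in PR-338, at 1 in both fits, or in PG-353, at 0 in both. Lower calls fell in PR-438, from 12 to 1.

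Without each replicate in turn, or PY-231 or M1 replicate 1, the mean ranged from -0.79 to 0.13 for FAS1, -0.40 to 0.29 for OLE1 and -0.72 to 0.59 for ACB1, with the highest values without replicate 2. With the loess it was 0.47 for FAA1. The replicate block gave 1 called member in each of PR-438, PR-338 and PG-259, and changed no other call. Without the dye term M1, PR-164 and PG-132 had 0 called members and the mean of the 8 mutants 3 (6 otherwise). The loess left 0 in PR-164 and PG-132. Of all 4069 genes, 6 and 0 were then called lower in these mutants, against 19 and 9 in the main fit. Centring on all probes gave 1 in PR-438 and 1 in PG-132. With one reference at a time M1 and PR-164 had 2 and PG-353 had 1. Without each replicate in turn, called members ranged from 0 to 1 in M1, were 0 in PR-164 and ranged from 0 to 3 in PG-132. Without M1 replicate 1 there were 0 in M1 and 1 in PR-438. Without PY-231 replicate 1 there was 1 in PG-132, and without the 3 arrays of weakest probe agreement 0 in PR-164 and 0 in PG-132. The causes of these changes were not tested. For the counts without the dye term, with centring on all probes and with arrays left out, no share of all genes is given here. Those counts therefore cannot be set against a change over the whole array. The median of probes and the genes on all 24 arrays moved none of 110 results past these bounds.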
